A study of Homo sapiens with 12 samples.

Results

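Induction of ALKBH7 was examined in one HEK293 line, which derives from human embryonic kidney, by comparing 3 arrays of induced cells with 3 arrays of uninduced cells. These 6 arrays, taken by their sample titles, are 6 of the 12 in the series, and the other 6 come from a matching ALKBH4 line. The question was how transcription changes when either AlkB protein is in excess. The line was built from a Flp-In T-REx host and carries a FLAG-tagged ALKBH7, integrated at 1 site and switched on by tetracycline. Induced cells received 2 µg/ml doxycycline and were collected 48 h later, and uninduced cells were the same line without doxycycline. All cells of both groups grew in medium with tetracycline-free serum, blasticidin and hygromycin. The line was expanded from a single colony, so it is 1 clone, and every induced array had both the drug and the transgene, whose effects cannot be told apart. The labels do not state whether replicates came from separate cultures, so p-values measure the spread between these samples only, and their number limits the precision of every value.

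ALKBH7 belongs to the AlkB family, dioxygenases that use iron and 2-oxoglutarate, several of which remove methyl groups from DNA or RNA. Unlike most relatives it resides in mitochondria, and mouse studies have linked it to fat metabolism and to programmed necrosis after alkylation damage.

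Expression was read as bead intensity on Illumina HumanWG-6 v3 BeadChips, quantile normalized over the 6 arrays and given on the log2 scale. A probe was tested when its detection p was under 0.01 on at least 3 of the 6 arrays, which left 13296 probes of 48803, for 9246 named genes. Before normalization the median intensity lay between 99.9 and 121 on induced and between 98.8 and 108 on uninduced arrays (exact two-sided permutation test, p = 0.3, which cannot go below 0.1 with 3 against 3). On all 6 arrays 9 of 11 HEK293 markers were detected, against 1 of 10 fibroblast, 0 of 8 blood cell and 2 of 8 epithelial markers. Of 10 tested HEK293 markers 1 rose and 0 fell (10%, against 7.14% of all genes), with values from -0.96 to 0.85. It was CDH2, a cadherin, which rose by 0.85 ± 0.16 (SE, limma adjusted p = 0.0218). Of 3 tested epithelial markers 1 fell (33.3%, against 4.99% of all genes). It was EPCAM, an epithelial adhesion protein, which fell by 0.73 ± 0.18 (limma adjusted p = 0.0402). Against uninduced replicate 1 alone EPCAM gave -0.32.

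Uninduced replicate 1 stood apart from its group, and values without it or against it alone are given where they differ most. Its correlation over all tested probes was 0.952 to 0.968 with the induced arrays, against 0.935 to 0.936 with uninduced replicates 2 and 3. Replicates 2 and 3 correlated with each other at 0.989 and with the induced arrays at 0.915 to 0.945, and the induced arrays with one another at 0.988 to 0.995. At 939 probes (7.06%) replicate 1 lay more than 1 log2 unit from the mean of replicates 2 and 3, above it at 233 and below it at 706. The median SD over probes was 0.11 among induced arrays and 0.24 among uninduced arrays, but 0.1 between uninduced replicates 2 and 3 alone.

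The ALKBH7 transcript itself gave the lowest p of all probes. Its log2 intensity was 13.05, 13.12 and 13.52 on induced arrays, against 9.90, 9.43 and 9.37 on uninduced arrays. Every induced array lay more than 3 units above every uninduced array, and uninduced replicate 1 was the highest of its group by a small margin. The difference was 3.66 ± 0.19 (SE, log2; limma adjusted p = 0.000887), a 12.7-fold increase. It was 3.83 without uninduced replicate 1 and 3.33 against that replicate alone, and it stayed between 3.33 and 3.92 over all alternative settings. As in any bulk sample, fewer cells with a transcript and less RNA per cell cannot be told apart.

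**Figure D1:**
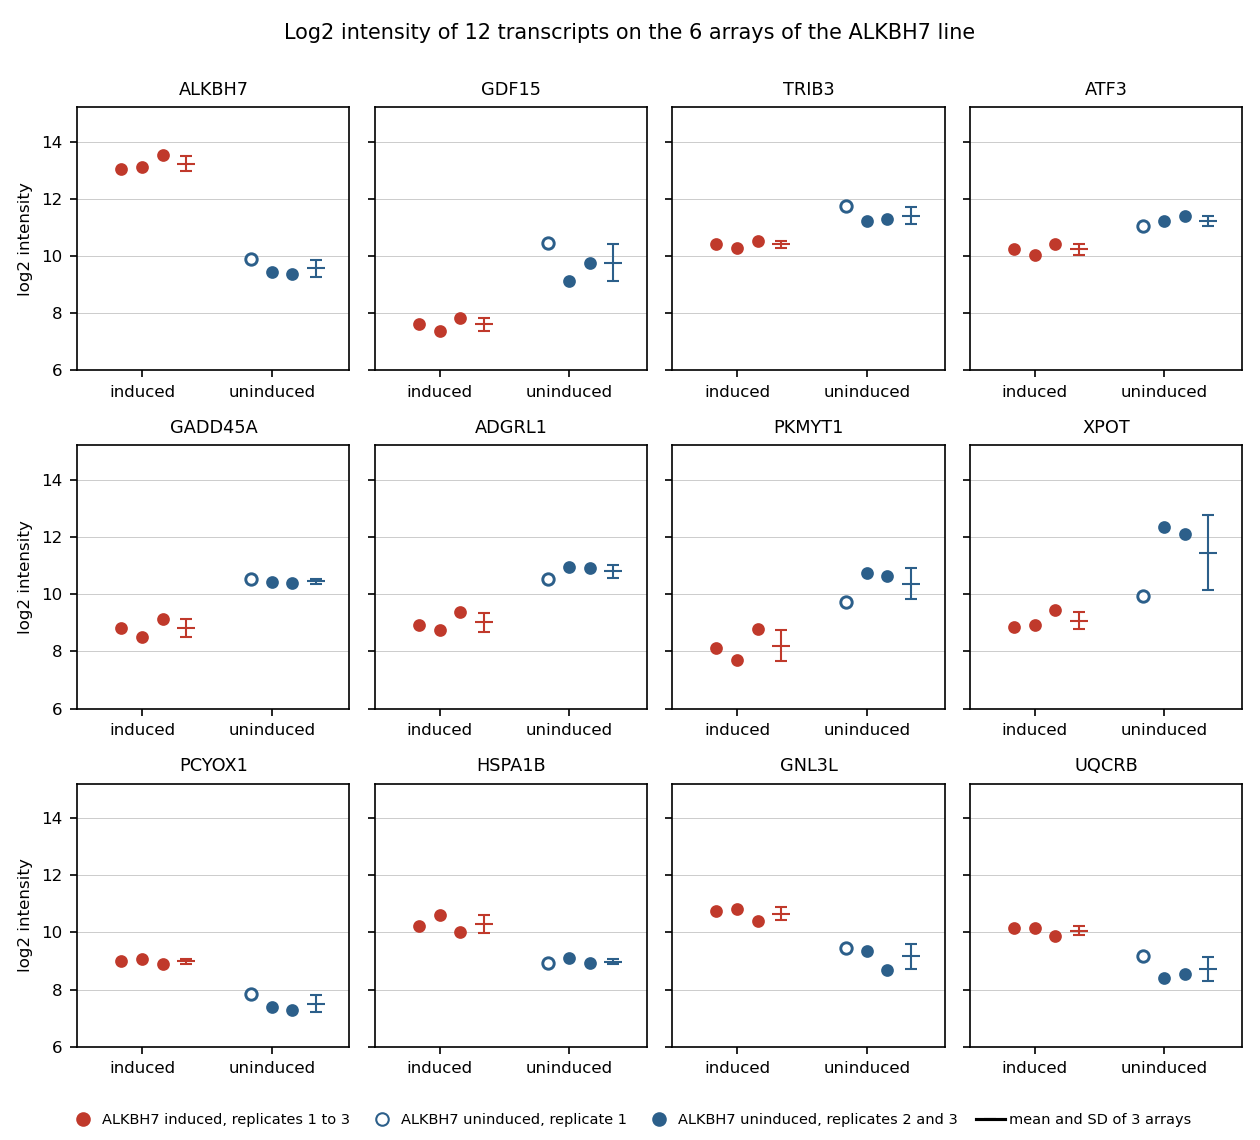
Log2 intensity of 12 transcripts on each array of the ALKBH7 line, induced at left and uninduced at right, with uninduced replicate 1 as an open circle and bars for the mean and SD of 3 arrays. ALKBH7 lies above 13 on all induced arrays and below 10 on all uninduced ones, while for XPOT uninduced replicate 1 (9.94) sits nearer the induced arrays than replicates 2 and 3 (12.34 and 12.09).

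Beyond the transgene many transcripts differed in both directions. In the limma fit 1814 probes (13.6%) passed an adjusted p of 0.05, of which 980 (7.37%) rose and 834 (6.27%) fell, for 771 and 635 named genes. Of these, 178 rose and 209 fell by more than 2-fold. At 5196 probes (39.1%) the groups were fully apart, all 1814 that passed among them. By rank product over the 9 pairs of arrays, at the study's limits of 5% false positives and 2-fold, 568 probes (4.27%) passed. When arrays were scaled to a common median in place of quantiles, 3 probes passed. The calls leaned on each array other than uninduced replicate 1. ALKBH7 was the only probe called in the full fit and in each of the 6 fits that left out 1 array. Without uninduced replicate 1 the count was 7037 (52.9%), including all 1814 in the same direction. Without uninduced replicate 2 or 3, or induced replicate 1 or 2, it was 1, and without induced replicate 3 it was 642. In the count that follows, replicate 1 was the only uninduced array, so the spread among uninduced arrays did not enter. The p-values there rest on the spread of induced arrays alone. Neither that count nor its overlap is comparable with the counts above. Against uninduced replicate 1 alone 3747 probes (28.2%) passed, 1396 of the 1814 among them.

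The level of uninduced replicate 1 set the size of many of these differences. It lay nearer than replicates 2 and 3 to the induced mean at 1260 of the 1814 called probes. The same was not counted over all tested probes, so this number does not set called probes apart from the rest. At every called probe the groups were apart, so none could change direction against that replicate alone. Of 172 called probes chosen for naming, 60 were over 1.5 times smaller against that replicate and 4 over 1.5 times larger. Over all tested probes the induced mean was more than 2-fold above uninduced replicate 1 at 146 and below it at 155. Against the mean of replicates 2 and 3 it was more than 2-fold above at 459 and below at 721. Only 47 probes passed this fold upward and 46 downward against both, and 1 passed it in opposite directions.

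**Figure D2:**
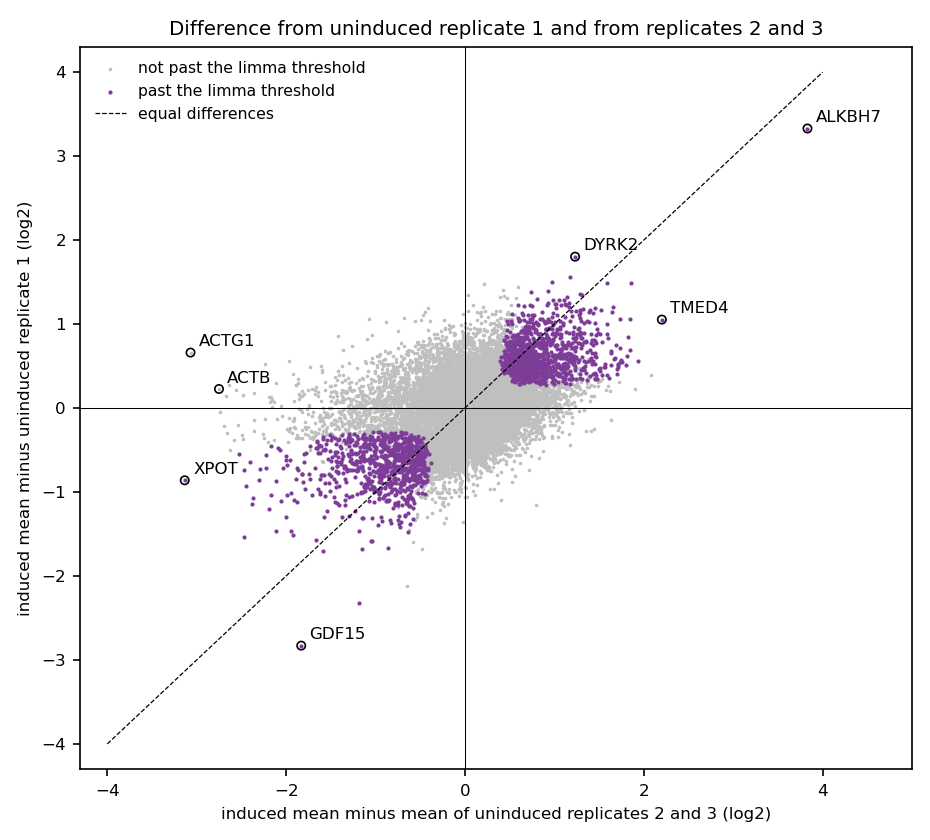
Each point is 1 of 13296 probes, with the induced mean minus the mean of uninduced replicates 2 and 3 on the x axis and minus uninduced replicate 1 on the y axis (log2), purple where the probe passed the limma threshold. ALKBH7 and GDF15 lie far from 0 on both axes, whereas the labelled probes of ACTB and ACTG1 lie much farther from 0 against replicates 2 and 3 than against replicate 1.

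GDF15, a secreted cytokine of the TGF-beta superfamily that rises in stressed cells, fell whichever uninduced arrays it was set against. Its log2 intensity was 7.61, 7.38 and 7.84 on induced arrays, against 10.44, 9.13 and 9.75 on uninduced arrays. All induced arrays lay below all uninduced arrays, and uninduced replicate 1 was the highest. The difference was -2.16 ± 0.30 (limma adjusted p = 0.0177), -1.83 without uninduced replicate 1 and -2.83 against it alone.

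Genes activated by ATF4, which switches on amino acid supply when stress kinases curb translation, fell more often than they rose. Of 49 such genes 45 were tested at their brightest probe, and 12 fell, 1 rose and 32 did not pass. Over all genes 4.99% fell and 7.14% rose. Their median was -0.21, against 0.06 over all genes, and it was -0.21 without uninduced replicate 1 and -0.19 against that replicate alone. Under median scaling, which moved the median of all genes to 0.15, the list stood at 0.01.

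TRIB3, a pseudokinase induced by ATF4, measured 10.42, 10.29 and 10.53 on induced arrays, against 11.75, 11.22 and 11.28 on uninduced arrays. ATF3, a repressor of the same bZIP family, measured 10.23, 10.04 and 10.43 on induced arrays, against 11.06, 11.23 and 11.41 on uninduced arrays. CEBPB, a bZIP activator, measured 11.51, 11.29 and 11.49 on induced arrays, against 12.56, 12.20 and 12.24 on uninduced arrays. For none of the 3 did the groups overlap, and uninduced replicate 1 was highest for TRIB3 and CEBPB and lowest of its group for ATF3. Their differences were -1.0 ± 0.17, -1.0 ± 0.15 and -0.90 ± 0.15 (limma adjusted p = 0.0195, 0.0177 and 0.0184). CEBPG, a partner of ATF4 on DNA, fell by 0.87 ± 0.16. FGF21, a metabolic hormone, was detected on all 3 uninduced and on 0 induced arrays. It passed the filter through the group where it was high, although it is counted among the falls of the list. Its fall is only bounded, at least 1.15-fold.

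The other members of that list that fell were named after their values were seen. DDIT3, the pro-apoptotic factor CHOP, gave -0.87 ± 0.21, and PPP1R15A, which brings a phosphatase to the initiation factor eIF2alpha, gave -0.84 ± 0.20. Among metabolic members, CTH of cysteine synthesis gave -1.09 ± 0.27, PSAT1 of serine synthesis -0.72 ± 0.18 and the mitochondrial serine hydroxymethyltransferase SHMT2 -0.71 ± 0.16. XPOT, which exports tRNA from the nucleus, is described below. NARS1, the asparaginyl-tRNA synthetase, was the member that rose (0.66 ± 0.15). ATF4 itself measured 13.30 on induced and 12.82 on uninduced arrays on average, a difference of 0.48 ± 0.15 at its brightest probe that did not pass (limma adjusted p = 0.0695). Of its other probes 1 gave 0.21 ± 0.16 and did not pass, and a dim one, detected on only 3 of 6 arrays, passed as lower on induced arrays (limma adjusted p = 0.0402).

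Immediate early genes, which respond to growth factor and stress signals within minutes, also held falls and no rise. Of 21 tested members 5 fell (23.8%, against 4.99% of all genes) and 0 rose, with a median of -0.37 that was -0.34 without uninduced replicate 1, -0.32 against it alone and -0.18 under median scaling. FOS, a subunit of the AP-1 factor, measured 7.86, 7.73 and 7.99 on induced arrays, against 8.47, 9.16 and 9.11 on uninduced arrays. Uninduced replicate 1 was the lowest of its group, yet above every induced array. FOS fell by 1.05 ± 0.20, DUSP1, a phosphatase that shuts off MAP kinases, by 0.97 ± 0.20, JUNB by 0.86 ± 0.15 and JUN by 0.57 ± 0.16 (limma adjusted p = 0.023, 0.0266, 0.0201 and 0.049). The fifth was ATF3, which is on both lists. JUNB was detected on all 3 uninduced but on only 1 induced array, so the group where it was high alone met the filter. The size of its fall may be limited by background. EGR1 gave -0.77 ± 0.31 and MYC -1.17 ± 0.56, neither of which passed (limma adjusted p = 0.119 and 0.178), and in each uninduced replicate 1 (11.03 and 9.11) lay near or below the induced mean (11.05 and 9.39).

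As members of both lists fell, the 250 bases before their start sites were searched for a C/EBP-ATF element (TGATGNAA) and a cAMP response element (TGACGTCA), on both strands, in RefSeq promoters of GRCh38.p14. Of the 9246 genes 7653 had a promoter there. The C/EBP-ATF element was present before 2 of 11 ATF4 targets that fell (18.2%) and 6 of 38 tested (15.8%). It was present before 1.85% of all genes that fell, 1.66% of all that rose, 1.42% of all tested genes and 3.19% of all 27305 promoters. The members were chosen as ATF4 targets, so a share above that of all genes is no evidence from these data. The cAMP response element was present before 4.50% of all genes that fell, 3.13% of all that rose and 3.33% of all tested genes. Among ATF4 targets it was present before 1 of 11 that fell and 1 of 38 tested. Among immediate early genes it was present before 1 of 5 that fell and 2 of 17 tested. The stretches below are those of decreased members that hold either element, with the element in capitals, and a match describes the letters and not a site of binding.
ATF3, chr1:212565186-212565253, plus strand: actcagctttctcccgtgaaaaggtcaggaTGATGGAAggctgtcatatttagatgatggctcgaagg
FGF21, chr19:48755440-48755507, plus strand: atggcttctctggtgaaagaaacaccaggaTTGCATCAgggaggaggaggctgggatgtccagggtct
PPP1R15A, chr19:48872333-48872400, plus strand: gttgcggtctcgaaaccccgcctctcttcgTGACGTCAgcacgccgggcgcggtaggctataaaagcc
DUSP1, chr5:172771283-172771350, minus strand: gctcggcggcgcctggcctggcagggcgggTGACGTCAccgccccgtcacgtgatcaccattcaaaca
ATF3 and FGF21 hold the C/EBP-ATF element, FGF21 on the opposite strand, and PPP1R15A and DUSP1 hold the cAMP response element.

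Of the unfolded protein response, by which the endoplasmic reticulum raises its folding capacity, 3 of 22 tested members fell (13.6%, against 4.99% of all genes) and 0 rose (median -0.12, but 0.15 under median scaling). XBP1, its spliced transcription factor, was the largest of these and fell at both of its probes. The brighter measured 10.96, 10.79 and 11.11 on induced arrays, against 11.96, 12.83 and 12.97 on uninduced arrays. The groups were apart, with uninduced replicate 1 in between. The differences were -1.64 ± 0.26 and -1.51 ± 0.25 (limma adjusted p = 0.018 and 0.0189), and -1.01 and -0.96 against uninduced replicate 1 alone. MANF and HYOU1, a secreted and a resident protein of the endoplasmic reticulum, fell by 0.64 ± 0.13 and 0.52 ± 0.13. The chaperone HSPA5, the usual gauge of this response, gave -0.30 ± 0.15 and did not pass (limma adjusted p = 0.195).

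GADD45A, a growth arrest gene and target of p53, fell at both probes, by 1.62 ± 0.17 and 0.86 ± 0.14 (limma adjusted p = 0.0177 and 0.0183). At the first of these it measured 8.83, 8.52 and 9.14 on induced arrays, against 10.53, 10.44 and 10.38 on uninduced arrays. The 3 uninduced arrays lay close together, replicate 1 included. Of 18 tested p53 targets, near the shares of all genes at 5.56% each way, GADD45A fell and PMAIP1, the BH3-only protein NOXA, rose (0.58 ± 0.13), and a dimmer PMAIP1 probe gave -0.89 ± 0.27 and did not pass.

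In the AlkB family, besides ALKBH7, 2 of 9 tested members fell (22.2%, against 4.99% of all genes). ALKBH3, a demethylase of alkylated DNA and RNA, measured 9.87, 9.75 and 9.99 on induced arrays, against 10.72, 10.45 and 10.67 on uninduced arrays, a difference of -0.74 ± 0.14 (limma adjusted p = 0.0212). ALKBH1, a demethylase found partly in mitochondria, gave -0.73 ± 0.18 (limma adjusted p = 0.0377), but -0.36 against uninduced replicate 1 alone. A second ALKBH1 probe gave -0.70 ± 0.20 and did not pass (limma adjusted p = 0.0526). For ALKBH3 the value against replicate 1 alone was -0.85. ALKBH2, ALKBH4, ALKBH5, ALKBH6, ALKBH8 and FTO did not pass, with values between -0.53 and 0.45.

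Heat shock genes held 5 rises (25.0%, against 7.14% of all genes) and 1 fall among 20 tested (median 0.17, and 0.36 and 0.27 against the other replicates and against uninduced replicate 1). HSPA1B, the inducible HSP70, measured 10.22, 10.62 and 10.02 on induced arrays, against 8.92, 9.09 and 8.92 on uninduced arrays. All induced arrays lay above all uninduced arrays, which lay close together, replicate 1 included. It rose by 1.31 ± 0.17 (limma adjusted p = 0.0177), although a probe of this gene may also read its near-identical neighbour HSPA1A. The mitochondrial chaperonin genes HSPD1 and HSPE1, which share one promoter, rose by 0.64 ± 0.15 and 0.82 ± 0.17, HSPE1 at both probes. HSPD1 had 2 dimmer probes at -0.74 ± 0.40 and 0.00 ± 0.18 that did not pass. HSPA8 gave 0.56 ± 0.14. HSPA4, detected on all 3 induced and on 0 uninduced arrays, passed the filter through the group where it was high, and its rise is only bounded, at least 1.28-fold. The fall was LONP1, the protease of the mitochondrial matrix, at -0.64 ± 0.15.

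In respiratory complexes III to V 6 of 32 tested members rose (18.8%, median 0.23) and in complex I 2 of 29 (6.9%, median 0.32), against 7.14% of all genes, and none fell in either. UQCRB, a subunit of complex III, measured 10.14, 10.16 and 9.88 on induced arrays, against 9.18, 8.39 and 8.55 on uninduced arrays. ATP5MC1, a subunit of the ring of ATP synthase, measured 13.22, 13.32 and 13.02 on induced arrays at its brighter probe, against 12.31, 11.91 and 11.90 on uninduced arrays. In both the groups were apart and uninduced replicate 1 was the highest of its group. They rose by 1.35 ± 0.22 and 1.15 ± 0.16 (limma adjusted p = 0.018 and 0.0177), ATP5MC1 also at its other probe (1.08 ± 0.22). NDUFB3 of complex I rose at both probes (0.99 ± 0.16 and 0.93 ± 0.15), and NDUFS5, COX7B, UQCR10, ATP5MF and UQCRC2 rose by 0.63 to 1.30 as well. The value of COX7B was 0.48 against uninduced replicate 1 alone. UQCR10 had 2 dimmer probes at 0.25 and -0.05 and ATP5MF 1 at 0.68, none of which passed.

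That shift depended on the uninduced array used. The median of complex I was 0.49 without uninduced replicate 1 and -0.01 against it alone, and that of mitochondrial ribosomal proteins, of which 7 of 75 rose (9.33%) and 3 fell (4.0%), was 0.30 and -0.01. For complexes III to V it was 0.33 and 0.14. Among ribosomal proteins of the mitochondrion MRPS34 and MRPL12 fell by 1.34 ± 0.21 and 0.89 ± 0.16, and MRPL52 and MRPL1 rose by 0.97 ± 0.16 and 0.72 ± 0.13. Of 22 fatty acid oxidation genes, the pathway tied to ALKBH7 in mice, 2 rose (9.09%, against 7.14% of all genes) and 0 fell (median 0.19). These were ACAA2, the last thiolase of the spiral, at 0.61 ± 0.13 and HADHB at 0.46 ± 0.12. In the citric acid cycle SUCLG2 and PDHA1 rose by 0.84 ± 0.13 and 0.57 ± 0.13.

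Proteasome genes were mostly higher, with 5 of 32 past the threshold upward (15.6%, against 7.14% of all genes), 1 downward and a median of 0.31 (0.37 without uninduced replicate 1 and 0.16 against it). PSMD1 and PSMA2 rose by 0.68 ± 0.13 and 0.83 ± 0.17. PSMC4, an ATPase of the 19S cap, went the other way at all 3 of its probes, with -1.79 ± 0.36, -1.74 ± 0.32 and -1.18 ± 0.23. At the first it measured 8.0, 7.82 and 8.75 on induced arrays, against 9.22, 10.51 and 10.20 on uninduced arrays, so that replicate 1 lay in between, and the difference was -1.03 against that replicate alone. SEM1, a small subunit of the 19S cap that also binds BRCA2, rose by 1.48 ± 0.37 at a dimmer probe (0.56 against uninduced replicate 1 alone), and its brighter probe gave 0.46 ± 0.13 and did not pass (limma adjusted p = 0.0561).

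Targets of SREBP, the activator of sterol and fatty acid synthesis, held 4 rises (15.4%, against 7.14% of all genes) and 0 falls among 26 tested, with a median of 0.26 that was 0.25 without uninduced replicate 1 and 0.19 against it. HMGCS1, which makes the precursor of mevalonate, measured 11.26, 11.40 and 10.95 on induced arrays, against 10.18, 10.29 and 10.53 on uninduced arrays. The groups did not overlap and uninduced replicate 1 was the lowest. HMGCS1, MSMO1, ELOVL6 and NSDHL rose by 0.87 ± 0.16, 0.89 ± 0.19, 0.80 ± 0.15 and 0.74 ± 0.13. A dimmer probe of ELOVL6, a fatty acid elongase, did not pass (limma adjusted p = 0.983). PCYOX1, which breaks down prenylated cysteine left over from the same isoprenoid route, measured 8.99, 9.06 and 8.91 on induced arrays, against 7.85, 7.40 and 7.28 on uninduced arrays. It rose by 1.48 ± 0.17 at this probe and by 0.95 ± 0.13 at a second one (limma adjusted p = 0.0177 each).

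Genes of ribosome biogenesis rose at 7 of 35 tested (20%, against 7.14% of all genes) and fell at 0, although their median was only 0.08. NOP58 and NOP56, core proteins of box C/D particles that guide methylation of ribosomal RNA, rose by 1.30 ± 0.22 and 0.76 ± 0.16. GNL3L, a nucleolar GTPase, measured 10.76, 10.83 and 10.39 on induced arrays, against 9.46, 9.35 and 8.67 on uninduced arrays, a rise of 1.50 ± 0.23 (limma adjusted p = 0.0177). Cytosolic ribosomal proteins, in contrast, held 1 rise and 1 fall among 68 tested with a median of 0.05, which was -0.05 under cyclic loess.

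**Figure D3:**
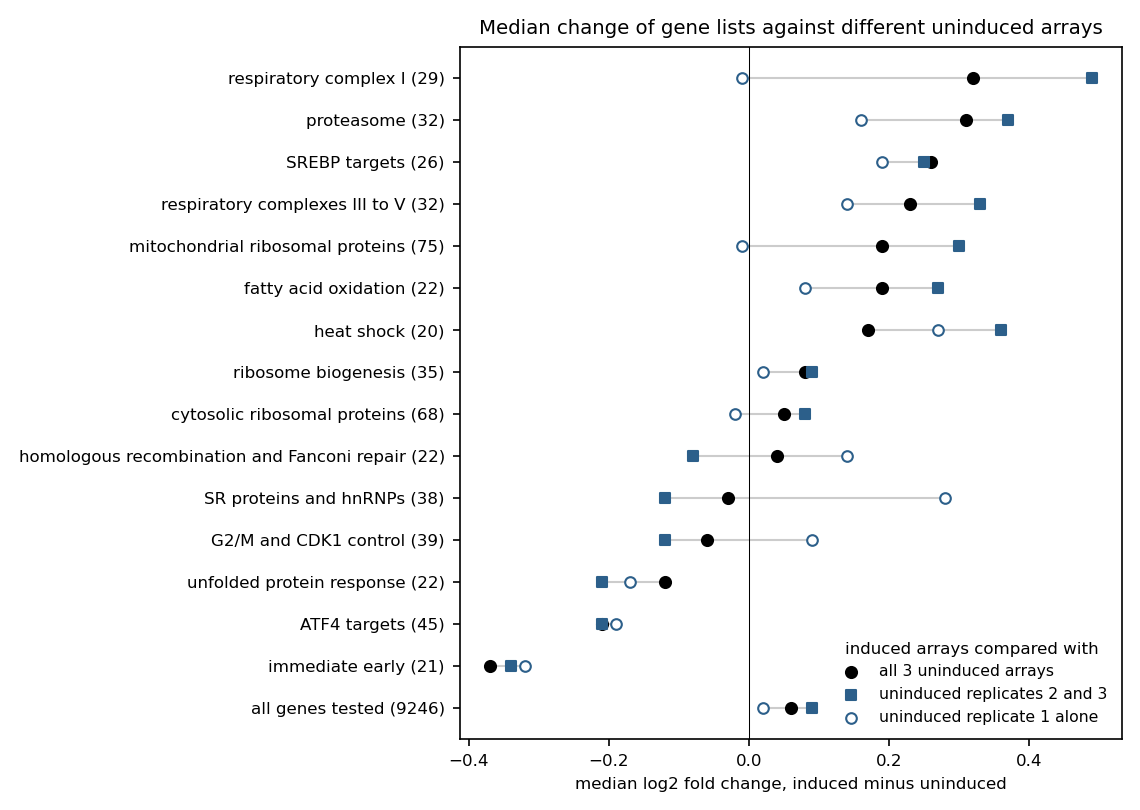
Median log2 fold change of 15 gene lists and of all genes, with the number of tested genes in brackets, computed against all 3 uninduced arrays (black), against uninduced replicates 2 and 3 (squares) and against replicate 1 alone (open circles). The medians of ATF4 targets and immediate early genes stay between -0.21 and -0.19 and between -0.37 and -0.32, while that of respiratory complex I runs between -0.01 and 0.49.

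Genes of the cell cycle moved in both directions. Of 39 G2/M genes 4 rose (10.3%) and 3 fell (7.69%), against 7.14% and 4.99% of all genes (median -0.06, but 0.2 under median scaling). PKMYT1, the kinase that holds CDK1 inactive, fell by 2.16 ± 0.33 and 1.0 ± 0.16 at its probes (limma adjusted p = 0.0177 each). At the first of these it measured 8.13, 7.71 and 8.78 on induced arrays, against 9.74, 10.73 and 10.64 on uninduced arrays, all above the induced ones. MAD2L1 of the spindle checkpoint gave -1.77 ± 0.42, but -0.73 against uninduced replicate 1 alone, and AURKB -0.62 ± 0.13, while cyclin CCNB1 rose by 0.86 ± 0.18 and NEK2 by 0.74 ± 0.15. A dimmer NEK2 probe gave -0.55 ± 0.21 and did not pass (limma adjusted p = 0.109). DTYMK, the thymidylate kinase, measured 9.14, 9.08 and 9.85 on induced arrays, against 10.82, 11.35 and 11.60 on uninduced arrays, a fall of 1.9 ± 0.27. DYRK2, a kinase that readies substrates for degradation, rose by 1.42 ± 0.20 at 1 probe, but 2 other probes gave 0.19 and 0.05. Of genes for homologous recombination and Fanconi repair 4 of 22 rose (18.2%, against 7.14% of all genes) and 0 fell. XRCC2, FANCI, FANCB and BARD1 rose by 0.74 to 1.03. The list median was 0.04, against 0.06 over all genes, and 10 members lay below 0. It was -0.08 without uninduced replicate 1 and 0.14 against it alone. Without that replicate 7 members rose and 7 fell, against 2771 and 1987 of all 9246 genes. Against it alone XRCC2 gave 0.57 and FANCI 0.58, but FANCB 0.75 and BARD1 0.78. A dimmer FANCB probe gave 0.38 ± 0.14 and did not pass.

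Of 12 tested genes of meiosis and spermatogenesis 2 rose and 2 fell (16.7% each, against 7.14% and 4.99% of all genes). DMC1, the meiotic recombinase, measured 10.75, 10.68 and 10.52 on induced arrays, against 10.03, 9.07 and 8.61 on uninduced arrays, a rise of 1.41 ± 0.32 that was 0.62 against uninduced replicate 1. PSMC3IP, a cofactor of DMC1, measured 7.78, 7.62 and 8.27 on induced arrays, against 9.35, 9.89 and 9.78 on uninduced arrays, a fall of 1.78 ± 0.21. A second PSMC3IP probe gave -0.35 ± 0.17 and did not pass (limma adjusted p = 0.188). The groups were apart at the DMC1 probe and at the first PSMC3IP probe. TDRD1 rose by 0.67 ± 0.18 at its brighter probe, and its dimmer probe gave 0.38 ± 0.13 and did not pass. MSH5 gave -0.58 ± 0.16 at its brightest probe and -0.77 ± 0.13 and -0.84 ± 0.14 at dimmer ones, all of which passed. Its remaining probe gave 0.12 ± 0.13 and did not pass. Some genes were chosen by the study on these same samples, which is no independent evidence of their direction. Of these, MSL3 (0.18 ± 0.12), CREB1 (0.66, 1.01 and 0.79 at 3 probes) and GNAS (-0.20 ± 0.13) did not pass. The study listed MSL3 among its largest rises. The MSL3 probe tested here may not be the one it read, because probes without a symbol were not named. RBX1, a ring protein of cullin ligases, rose by 1.11 ± 0.26 (0.56 against uninduced replicate 1 alone).

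The largest falls were often those in which uninduced replicate 1 lay close to the induced arrays. XPOT measured 8.87, 8.93 and 9.44 on induced arrays, against 9.94, 12.34 and 12.09 on uninduced arrays. Its difference was -2.38 ± 0.57 (limma adjusted p = 0.0348), -3.13 without uninduced replicate 1 and -0.86 against it. MORF4L2, of the NuA4 acetyltransferase complex, gave -1.87 ± 0.50 overall and -0.55 against replicate 1 alone, and CNBP, a zinc finger protein that binds single strands, -1.9 ± 0.44 and -0.74. A second CNBP probe gave 0.13. ADGRL1, the adhesion receptor latrophilin, had no such gap, with 8.93, 8.74 and 9.37 on induced arrays, against 10.53, 10.96 and 10.91 on uninduced arrays, and a difference of -1.79 ± 0.20.

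Uninduced replicate 1 departed far from replicates 2 and 3 at probes of some abundant genes, by amounts that differed between probes of a gene. One probe of ACTG1, which encodes gamma actin, measured 8.42, 8.31 and 9.44 on induced arrays, against 8.07, 12.09 and 11.50 on uninduced arrays. One probe of ACTB, beta actin, measured 10.24, 10.20 and 11.27 on induced arrays, against 10.34, 13.64 and 13.00 on uninduced arrays. In both, uninduced replicate 1 stood with the induced arrays, and replicates 2 and 3 stood well above all others. The brighter probe of ACTG1 gave 14.28, 14.34 and 14.58 on induced arrays, against 14.21, 14.49 and 14.47 on uninduced arrays, with no such split. A second ACTB probe, however, also split, with 12.87, 13.16 and 12.99 on induced arrays, against 11.90, 13.48 and 13.48 on uninduced arrays, and replicate 1 was lowest at the third as well (12.25, against 13.24 and 13.09 in replicates 2 and 3). None of these passed the test, with differences of -1.83 ± 0.93 and 0.01 ± 0.14 at the ACTG1 probes and -1.76 ± 0.77, 0.05 ± 0.39 and 0.28 ± 0.25 at the ACTB probes.

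The same was seen at 1 probe each of ITGB1, TMPO, CCNC, TCEA1 and CCDC117 and at 2 of 3 probes of PCGF6, where at the farthest probe replicate 1 lay 2.53 to 2.75 below replicates 2 and 3 or, for ITGB1, at 7.73 against 10.77 and 10.32. In the opposite direction replicate 1 lay 1.51 to 1.95 above the others at probes of CMIP, RPL10A, RPL21, CDKN2A, COX14, HSPB1, ECI1 and ZYX. Of 241 genes with several tested probes of which at least 1 departed downward by more than 1 unit, all probes did so in 30 (12.4%), and in 112 (46.5%) the brightest probe did not. Whether RNA quality or the position of a probe has a part in this was not tested.

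**Figure D4:**
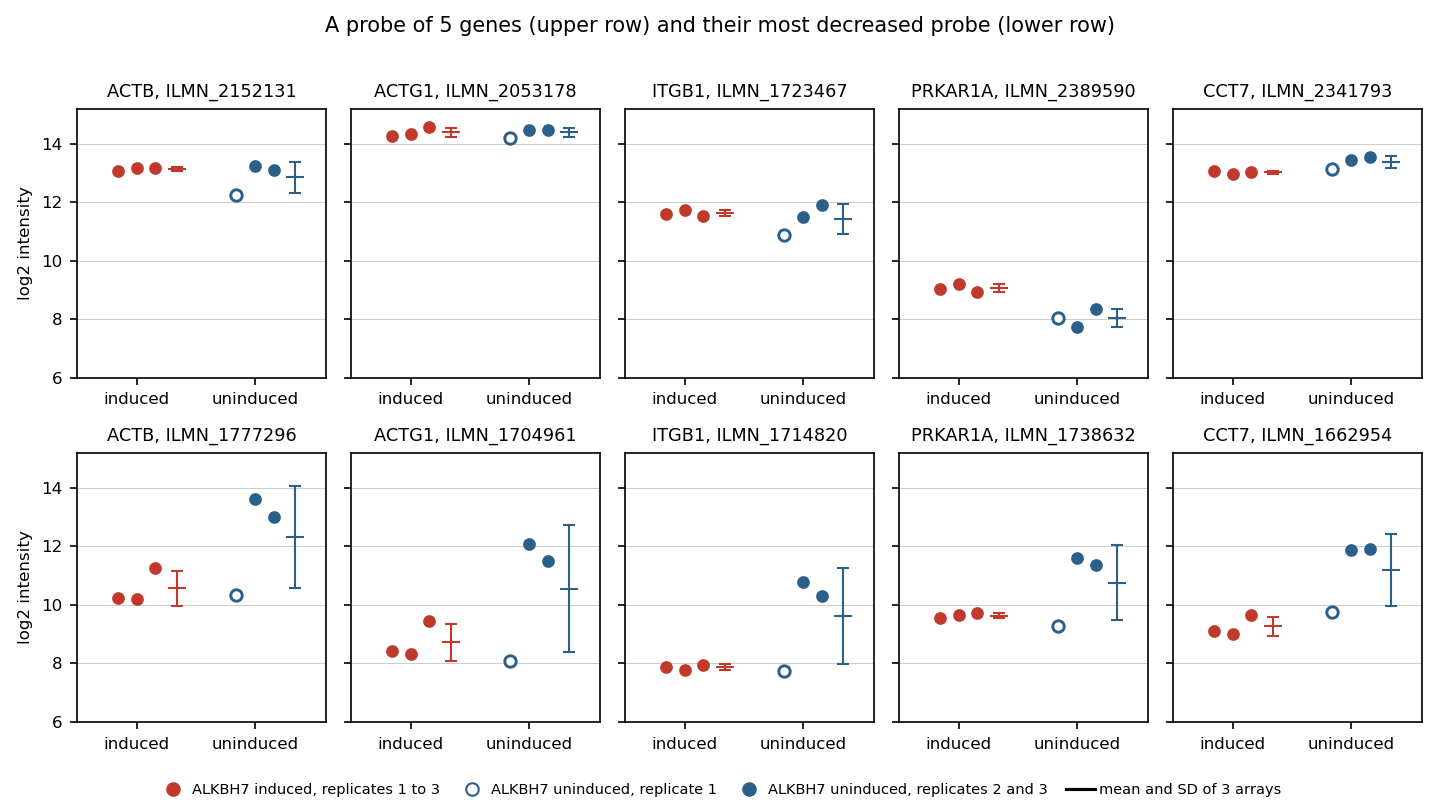
Log2 intensity on each array at 2 probes of 5 genes, another probe of the gene in the upper row and its most decreased probe in the lower row, induced at left and uninduced at right, with uninduced replicate 1 as an open circle and bars for the mean and SD of 3 arrays. In the lower row replicate 1 lies at the level of the induced arrays, well below replicates 2 and 3, and in the upper row that split is smaller or absent.

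Probes of one gene often disagreed in the comparison itself. Of 1802 genes with at least 2 tested probes, all probes rose in 22 and all fell in 37, some but not all passed in 492, and probes passed in opposite directions in 8. Their log2 fold changes differed by more than 1 in 275. PRKAR1A, the regulatory subunit of protein kinase A, measured 9.05, 9.21 and 8.94 on induced arrays at 1 probe, against 8.04, 7.75 and 8.37 on uninduced arrays, a rise of 1.01 ± 0.18. At its other probe it measured 9.55, 9.65 and 9.71 on induced arrays, against 9.29, 11.62 and 11.38 on uninduced arrays, a difference of -1.13 ± 0.54 that did not pass. CCT7, a chaperonin subunit, gave -1.92 ± 0.53, 0.49 ± 0.20 and -0.35 ± 0.14 at its 3 probes, none of which passed.

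Genes whose probes all passed in one direction give the firmest identity to a change. Among the rises were MYL6, a myosin light chain (1.06 ± 0.15 and 1.09 ± 0.15), PRDX1, a peroxidase (0.99 ± 0.12 and 0.93 ± 0.18), ARID4B, a chromatin protein (1.27 ± 0.17 and 0.83 ± 0.17), and DBI, which binds acyl-CoA (0.98 ± 0.25 and 1.00 ± 0.18). Among the falls were DMKN, a secreted protein of skin (-1.33 ± 0.20, -0.92 ± 0.18 and -1.01 ± 0.17), the kinase MAP4K4 (-1.0 ± 0.25 and -1.13 ± 0.25), and the adaptor subunits AP3S1 (-1.43 ± 0.31 and -0.99 ± 0.22) and AP1S1 (-0.91 ± 0.16 and -1.17 ± 0.26). Against uninduced replicate 1 alone the differences of DMKN were larger (-1.68, -1.28 and -1.36). Those of DBI (0.35 and 0.59), MAP4K4 (-0.39 and -0.52) and AP3S1 (-0.78 and -0.53) were smaller. MYL6, PRDX1, ARID4B and AP1S1 shrank less.

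Whether the response differed from that of the ALKBH4 line, which received the same drug, was tested over all 12 arrays as the difference between the 2 inductions. Only 11 of 15444 probes (0.0712%) passed, 9 of them higher and 2 lower in the ALKBH7 line. In the ALKBH7 line GDF15 averaged 7.29 ± 0.24 after induction and 9.54 ± 0.67 without it (SD, n = 3 each). The ALKBH4 line gave 6.70 ± 0.11 after induction and 6.75 ± 0.16 without it. Thus it stood higher in the uninduced ALKBH7 line than in any other group. Whether the low values of the ALKBH4 line lay above background was not tested, so a fall there may have been out of reach. For TRIB3 the changes were -1.03 in the ALKBH7 line and -0.48 in the ALKBH4 line, for ATF3 -1.04 and -0.55, for CEBPB -0.90 and -0.61 and for HSPA1B 1.35 and 1.25. The difference between lines did not pass at any of these 4 genes (limma adjusted p = 0.36, 0.281, 0.536 and 0.938). In the ALKBH4 line itself 0 probes passed in limma, and 376 had an unadjusted p under 0.05.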

How the data were processed

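Each of the 12 samples was read on its own Illumina HumanWG-6 v3 array. The deposited intensity values are bead averages that the authors took from GenomeStudio as they were, unnormalized and in arbitrary units. The deposited detection p-value of each probe, as exported by the authors, compares it with the negative control beads of its array. A table of linear intensities that the authors quantile normalized in J-Express was used as an alternative only. No sample column was left without a group (0 such columns).

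Here the 6 arrays of the ALKBH7 line were quantile normalized without background correction, log2 transformed, filtered at a detection p under 0.01 on at least 3 arrays, and fitted in limma 3.58.1 (R 4.3.3) with lmFit and eBayes and Benjamini-Hochberg adjustment over all 13296 probes. Array medians were compared by exact two-sided permutation (scipy 1.17.1). The rank product used 9 pairs that share arrays, so its error is understated. Scripts were tested on simulated data. Of 48803 probes 27578 had 1 gene symbol, 13 several and 21212 none, and no gene was named from the last 2 kinds. A list was counted at the brightest probe of each gene. The difference between lines was fitted over all 12 arrays, normalized together.

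The members and lists were chosen with earlier results of these data known. Genes named are ALKBH7, the 15 largest changes each way with groups apart, genes whose probes all passed, the 8 largest departures of uninduced replicate 1 each way, up to 6 members a list, and the genes the study chose. Others were named after their values were seen. Promoter sequences are from RefSeq (GRCh38.p14), matched by gene. Alternatives covered background correction, scaling, filter, offset, array weights, a replicate block and leaving out each array.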

Additional observations from a re-analysis of the deposited data

Results flagged for a closer look

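The change on induction differed between the ALKBH7 and ALKBH4 lines at 11 probes by the test of that difference in limma, and 7 of them have a gene symbol. The difference (log2, ALKBH7 line minus ALKBH4 line) was 3.68 for ALKBH7 itself. It was -2.21 for GDF15 and -1.36 for ENO3, a muscle enolase. It was 1.52 for GOLIM4, a Golgi membrane protein, and 1.48 for CERT1, which carries ceramide to the Golgi. PCYOX1 gave 1.32 and WHAMM, which promotes actin assembly on Golgi membranes, gave 1.11. The limma adjusted p was 1.02e-05 for ALKBH7 and lay between 0.0132 and 0.046 for the others. At several settings given below only 1 probe passed. ENO3 averaged 6.50 ± 0.17 after induction and 7.97 ± 0.07 without it in the ALKBH7 line (SD, n = 3 each). In the ALKBH4 line it averaged 6.84 after induction and 6.94 without it. WHAMM averaged 7.82 after induction and 6.79 without it in the ALKBH7 line, against 6.66 and 6.73 in the ALKBH4 line. Whether the low values of ENO3 and WHAMM, or those of GDF15 in the ALKBH4 line, lay above background was not tested. A probe entered this fit when detected on at least 3 of the 12 arrays, so 1 group could carry it. The size of the ENO3, WHAMM and GDF15 differences may be limited by background. GOLIM4 averaged 8.63 ± 0.05 after induction and 7.23 ± 0.37 without it in the ALKBH7 line, against 7.11 and 7.23 in the ALKBH4 line.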

How the results depend on the processing

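ALKBH7 passed under every alternative at which it was tested, with log2 fold changes of 3.33 to 3.92. The count of 1814 probes was 3 under median scaling, 7849 with array weights, 3710 with all 12 arrays, 3747 with uninduced replicates 2 and 3 left out, 1 at an adjusted p under 0.01, 387 with a fold over 2 and 568 by rank product (205 higher, 363 lower). The count with uninduced replicates 2 and 3 left out rests on the spread of induced arrays alone and is not comparable with the others. Leaving out 1 array gave 1 to 7037. Background correction, cyclic loess, the authors' values, the filter, the offset and a trended robust prior gave 1374 to 2110. With the replicate block it was 2895, but deviations of same-numbered arrays correlated at 0.4487, -0.1155 and 0.1606, so the samples share only a number. The 11 probes for the difference between lines became 1 under median scaling, 1 with the authors' values and 75 without the filter. The count was also 1 without ALKBH4 uninduced replicate 1, 2 or 3 or ALKBH4 induced replicate 1 or 2. Leaving out ALKBH7 induced replicate 1 or 2 gave 1 as well. Where the count was 1, at most 1 of the 7 genes with a symbol could have passed. The highest count on leaving out 1 array was 3335, without uninduced replicate 1 of the ALKBH7 line. The 939 departures of that replicate ranged from 814 to 1362, split 23 above and 1339 below under median scaling. Of 204 named probes 17 turned direction under an alternative, and 0 of these had passed. For 13 of them, named for the departure of uninduced replicate 1, the range ran between -3.17 and 0.66 for ACTG1, -2.9 and 0.23 for ACTB and -1.15 and 0.8 for CMIP, for example. Of the other 4, CCT7 at its brightest probe gave 0.11 and GNAS 0.27 under median scaling, and PRKAR1A gave 0.35 against uninduced replicate 1 alone. CD14 (0.01) gave -0.02 under median scaling, -0.04 under cyclic loess, -0.28 against that replicate alone, and -0.11 to 0.15 on leaving out 1 array. The cause of these shifts was not tested. The number of arrays limits precision, and probes near background carry the least.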
